A study of Mus musculus with 6 samples.

Results

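The nuclear pore complex genes were followed in mouse oocytes with and without normal Brwd1. They were the genes whose symbol is Nup followed by a number, together with Nupl1, Nupl2, Pom121, Ndc1, Seh1l, Aaas, Rae1, Sec13 and Ranbp2, each read from the probe sets that the array annotation ties to that 1 symbol. This gave 29 genes from 38 probe sets, of 19938 genes with a probe set of their own in a table of 35556 probe sets. A gene with several probe sets is given by its brightest, and Tpr and Nup35 were not analysed here. Levels came from 6 microarrays, 3 for homozygous Brwd1 mutant oocytes and 3 for wildtype oocytes, both of a B6/C3H background. Every sample was a pool of 100 germinal vesicle stage oocytes, which are arrested before the meiotic divisions, from females 2 to 6 months old given 5 IU equine chorionic gonadotropin 44 h earlier to stimulate follicle growth. The labels do not describe the mutant allele, nor do they state that different animals supplied each pool. The p-values therefore cover sample-to-sample spread of possibly technical origin only.

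The nuclear pore complex is the channel through the nuclear envelope by which RNA and protein pass between nucleus and cytoplasm. Its proteins, the nucleoporins, form an outer ring on each face (the Y complex), an inner ring, a central channel lined with phenylalanine-glycine repeats that bind transport receptors, filaments on the cytoplasmic side, a basket on the nuclear side and an anchor of membrane proteins. The large nucleus of the germinal vesicle stage oocyte is bounded by an envelope with pores, which breaks down when meiosis resumes. At that point several Y complex nucleoporins move to kinetochores, the sites where chromosomes attach to the spindle.

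The genotype labels were checked first. Brwd1 was at 4.41, 4.56 and 4.50 in the mutant samples, against 8.91, 9.08 and 8.98 in the wildtype samples, on the log2 scale of the deposited values (mutant minus wildtype -4.50; limma, adjusted p = 2.2e-06). As a guide to background, 95% of 1212 probe sets for odorant and pheromone receptors lay at or below 4.48. The mutant samples read Brwd1 at about this level, so the difference is only a lower bound on the size of its fall. The 8 oocyte markers, among them Zp3 and Gdf9, had mean levels from 11.3 upwards. Of 8 granulosa and cumulus markers 5 were below the guide, of 6 theca and stroma markers 4, and of 6 blood, immune and endothelial markers 2. The summed linear signal of these lists was nonetheless higher in the mutant samples, at 174 to 186 against 158 to 166 in wildtype for granulosa and cumulus, 146 to 149 against 134 to 139 for theca and stroma, and 393 to 485 against 316 to 365 for blood, immune and endothelial markers. The summed signal of the 8 oocyte markers was 25700 to 26300 in the mutant and 25000 to 25700 in the wildtype samples. C1qb, a complement component made by macrophages, had the smallest p-value of the 3 lists of other cells. It was at 6.71, 6.92 and 7.06 in the mutant samples and 5.74, 5.76 and 6.49 in the wildtype samples. Its difference of 0.90 (limma, unadjusted p = 0.00379, adjusted p = 0.162) did not pass. Col3a1, a collagen of stroma, was at 0.27 and Has2, a cumulus gene, at 0.49 (limma, unadjusted p = 0.00417 and 0.0228, adjusted p = 0.167 and 0.267). The groups overlapped for Has2. Differences were positive for 6 of 8 granulosa and cumulus markers, 4 of 6 theca and stroma markers and 6 of 6 blood, immune and endothelial markers. Among those on the other side, Tnfaip6 was at -0.15, Inhba at -0.057 and Star at -0.033. Over all 19938 genes, 10845 differences were positive and 9093 negative. Over the 12662 genes above the guide, 6264 were positive and 6398 negative. Positive differences were thus more common among genes below the guide, where many of these markers lie. Pecam1, an endothelial marker, was the brightest of the 3 lists, with a mean of 7.75 over all arrays. Cdh5, another endothelial marker, had a mean of 4.50, about the level of the guide, while Fshr, Ptprc and Csf1r were below it. The part of other cells in the results was not tested. Array wildtype 3 was the outlying one on the principal component with 19% of the variance. The differences of Nup133, Nup107 and Pom121 are given with and without it.

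Most nuclear pore genes gave signals well above background in these oocytes. Of the 29, 28 had a mean level over all arrays above the background guide, 27 were above the median gene and 13 were above the 90th percentile of genes. The median member was at 8.98 in the mutant and 8.89 in the wildtype samples, where the median over all genes was 5.25 in the mutant and 5.20 in the wildtype samples. The order of array signals depends on how well each probe set binds as well as on transcript abundance, so it ranks signals and not molecules. Nup62, a repeat-bearing protein of the central channel, had the highest signal, at 11.09, 11.06 and 10.99 in the mutant samples and 11.05, 11.10 and 11.11 in the wildtype samples. It was followed by Nup98, whose protein carries repeats and also binds RNA export factors, and by Nup214, a repeat-bearing protein of the cytoplasmic filaments.

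**Figure D1:**
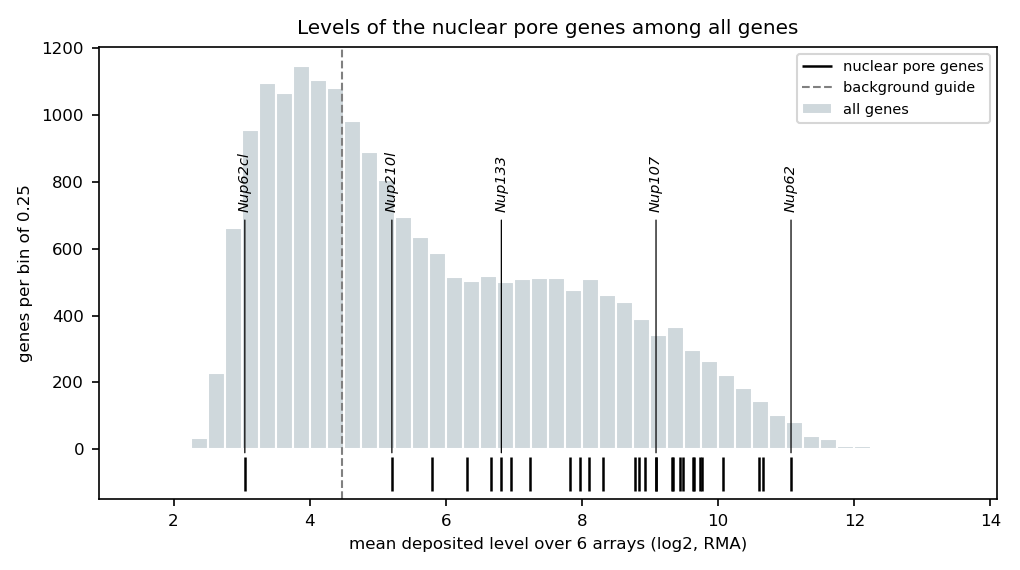
Histogram of the mean deposited level of all 19938 genes over 6 arrays (horizontal axis, log2; vertical axis, genes per bin of 0.25). Black ticks under the bars mark the 29 nuclear pore genes and the dashed line the background guide of 4.48. All ticks but that of Nup62cl lie to the right of the line.

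At the other end was Nup62cl, a gene on the X chromosome named for its likeness to the C-terminal part of Nup62. It read 3.01, 3.23 and 3.08 in the mutant samples and 2.94, 3.08 and 2.94 in the wildtype samples, all below the guide, so its transcript was not detectable above background. Along the order of the 29 signals, the ranges over 6 arrays overlapped for 19 of the 28 neighbouring pairs and did not overlap for 9. Nup62 was separate from Nup98, while Nup98 and Nup214 overlapped. The order was nearly the same in both genotypes, since 17 genes held the same rank in mutant and wildtype samples and no gene shifted by more than 2 places.

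The promoters of the genes with the highest and lowest signal, Nup62 and Nup62cl, and of the 2 genes with the smallest p-values below, Nup107 and Nup133, are shown to set the sequence of these starts beside their levels. Each is the 250 bases before the start that RefSeq annotates on GRCm38.p6, 5′ to 3′ in the direction of the gene, with motif matches in capitals.
Nup62, chr7:44815838-44816087, plus strand: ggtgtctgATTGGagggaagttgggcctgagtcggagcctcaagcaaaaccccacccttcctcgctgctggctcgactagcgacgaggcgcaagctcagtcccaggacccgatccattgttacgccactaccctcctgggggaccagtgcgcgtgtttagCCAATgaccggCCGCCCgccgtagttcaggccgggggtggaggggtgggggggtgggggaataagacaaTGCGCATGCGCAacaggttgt
Nup62cl, chrX:140062569-140062818, minus strand: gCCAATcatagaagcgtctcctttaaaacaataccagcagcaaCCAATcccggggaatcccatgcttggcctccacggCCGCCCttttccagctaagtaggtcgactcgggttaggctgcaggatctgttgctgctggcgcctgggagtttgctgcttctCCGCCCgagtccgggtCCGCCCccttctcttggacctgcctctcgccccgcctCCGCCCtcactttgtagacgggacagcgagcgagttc
Nup107, chr10:117792706-117792955, minus strand: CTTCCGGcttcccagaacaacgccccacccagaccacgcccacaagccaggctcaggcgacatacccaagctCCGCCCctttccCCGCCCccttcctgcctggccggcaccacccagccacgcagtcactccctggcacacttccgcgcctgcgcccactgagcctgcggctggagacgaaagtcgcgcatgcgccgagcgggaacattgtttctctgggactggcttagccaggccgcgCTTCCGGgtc
Nup133, chr8:123949266-123949515, minus strand: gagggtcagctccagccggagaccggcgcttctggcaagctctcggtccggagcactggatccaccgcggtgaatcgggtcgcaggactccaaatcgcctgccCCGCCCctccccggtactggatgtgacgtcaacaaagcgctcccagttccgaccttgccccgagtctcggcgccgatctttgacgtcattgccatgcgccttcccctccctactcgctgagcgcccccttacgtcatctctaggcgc

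Short motifs were searched on both strands. The TATA box was read as TATAAA, and the GC box, bound by factors such as Sp1, was searched with the letters GGGCGG. The site type of ETS factors was searched with the letters CCGGAAG. Part of the site of NRF1, which reads the same on both strands, was searched as TGCGCA. The CCAAT box was searched by the letters of its name. The letters of these motifs can share bases in a window, and a match describes letters, not binding. Sites spelled with other letters, for NRF1 or any other factor, were not counted. Promoters were found in the RefSeq table for 25 of the 29 genes, and those of Nup210l, Nup43, Nup85 and Seh1l are not shown. The Nup62 window held 5 matches, a GC box, CCAAT boxes and back-to-back copies of the NRF1 letters close to the start, and that of Nup62cl held 6, of CCAAT and GC boxes. Nup107 had ETS-type letters at both ends of its window and GC boxes between, and Nup133 had a single GC box. The windows of Nup62cl and Nup62, genes at opposite ends of the signal order, each held 17 CpG dinucleotides.

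Across the 25 genes, promoters were rich in CpG, where a gene with several windows was given by its highest count. The median was 21 CpG, against 12 over 15006 measured protein-coding genes and 16 over the 9871 of these above the guide. The GC box was present in 16 of 25 genes (64.0%, against 61.6% of genes above the guide), the CCAAT box in 10 (40.0%, against 39.7%) and the TATA box in 3 (12%, against 8.1%). ETS-type letters were in 6 genes (24.0%, against 14.7%), which were Nup107, Nup37, Nup155, Nup54, Sec13 and Aaas, and the NRF1 letters in 4 (16.0%, against 12.8%), which were Nup62, Nup214, Nup50 and Rae1. The 25 include Nup62cl, which is below the guide. In the 24 above it the shares were 62.5% for the GC box, 37.5% for the CCAAT box and 12.5% for the TATA box. They were 25.0% for the ETS-type letters and 16.7% for the NRF1 letters. These shares are descriptions of a small number of genes.

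**Figure D2:**
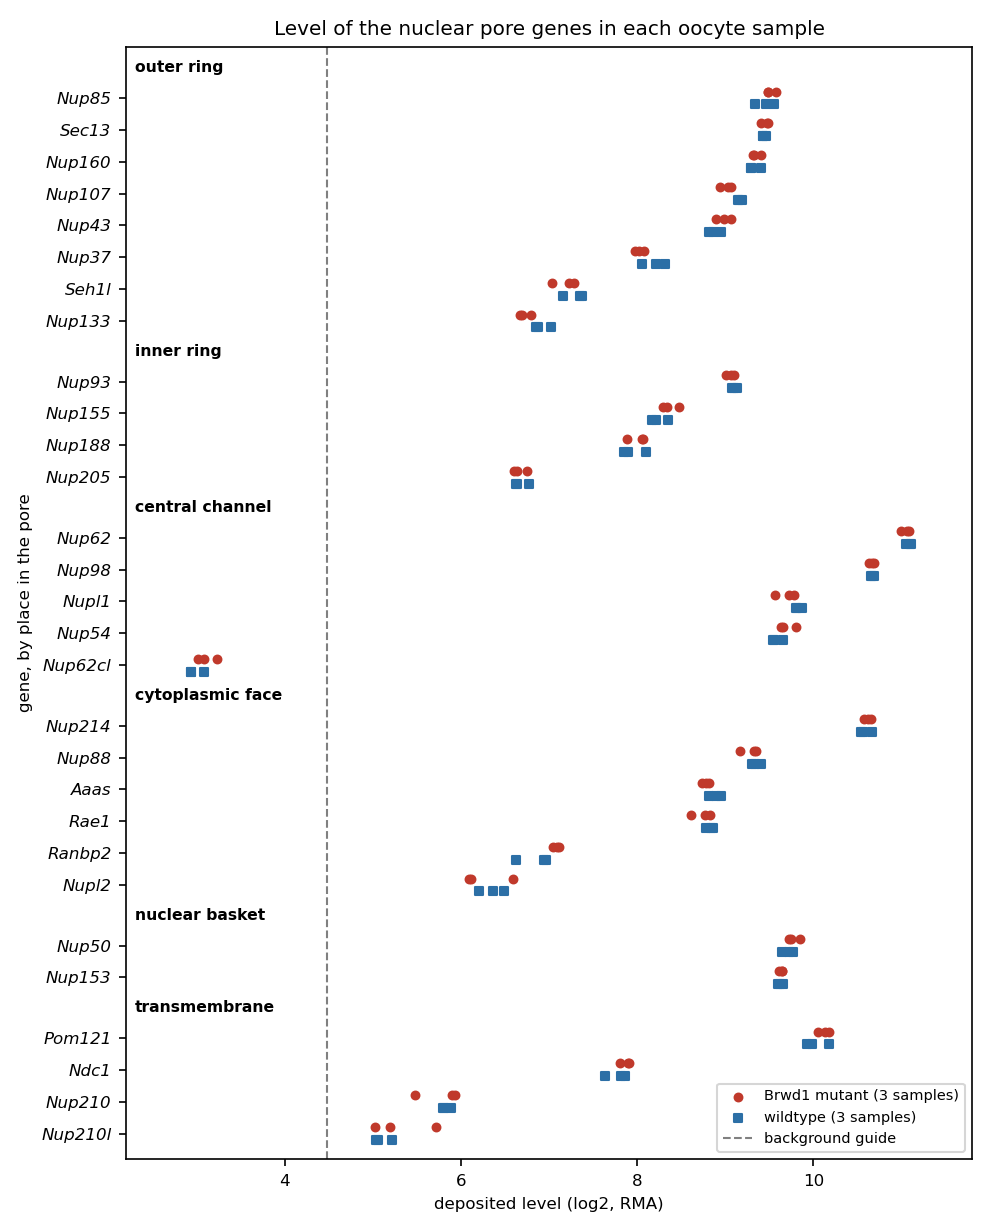
Deposited log2 level (horizontal axis) of each nuclear pore gene in each sample, grouped by place in the pore, with the 3 Brwd1 mutant samples as circles above the 3 wildtype samples as squares. The genotype means of a gene differ by at most 0.24, while the mean levels of the genes run from about 3 to about 11.

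In the mutant oocytes no nuclear pore gene passed the test. Over all probe sets tested, 0.137% passed at an adjusted p under 0.05 (limma with Benjamini-Hochberg adjustment over 23410 probe sets), and 0.0384% passed as higher and 0.0982% as lower in the mutant. Of the 29 nuclear pore genes 0 passed in either direction, with limma adjusted p-values of 0.281 to 0.964. At an unadjusted p under 0.05, 0 of 29 were higher, where the share over all probe sets was 7.3%, and 2 of 29 were lower, where that share was 7.4%. The 15 genes with a positive and the 14 with a negative log2 difference gave a median of 0.0067, beside a median of 0.013 over all genes. The 15 include Nup62cl, which is below the guide, and the median over the 28 genes above the guide was -0.00167. The median size of the difference without its sign was 0.09 among the nuclear pore genes, 0.09 among all genes and 0.11 among all genes above the guide. In pools of cells, fewer cells of a type and less RNA per cell cannot be told apart, and each difference is set against all other transcripts of the same array.

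The confidence intervals bounded how large a difference between these samples could have been missed. They cover only the sample-to-sample spread, possibly of technical origin, and each interval holds for its gene taken alone. The 95% confidence interval of the log2 difference lay inside ±0.5, a fold of 1.41, for 28 of the 29 genes, and inside ±0.3, a fold of 1.23, for 19. Among all genes above the guide the interval lay inside ±0.5 for 79.4% and inside ±0.3 for 41%. Those genes were dimmer, with a median level of 6.79 against 8.93 for the 29 nuclear pore genes. The 28 include Nup62cl, which is below the guide. The exception to ±0.5 was Nup210l, with an upper bound of 0.62, and every nuclear pore gene was inside ±1, a fold of 2. These bounds are on the scale of the array values, which compress differences of dim genes. The pooled SD within groups had a median of 0.081 over the nuclear pore genes and ran from 0.0216 for Nup153 to 0.268 for Nup210l.

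**Figure D3:**
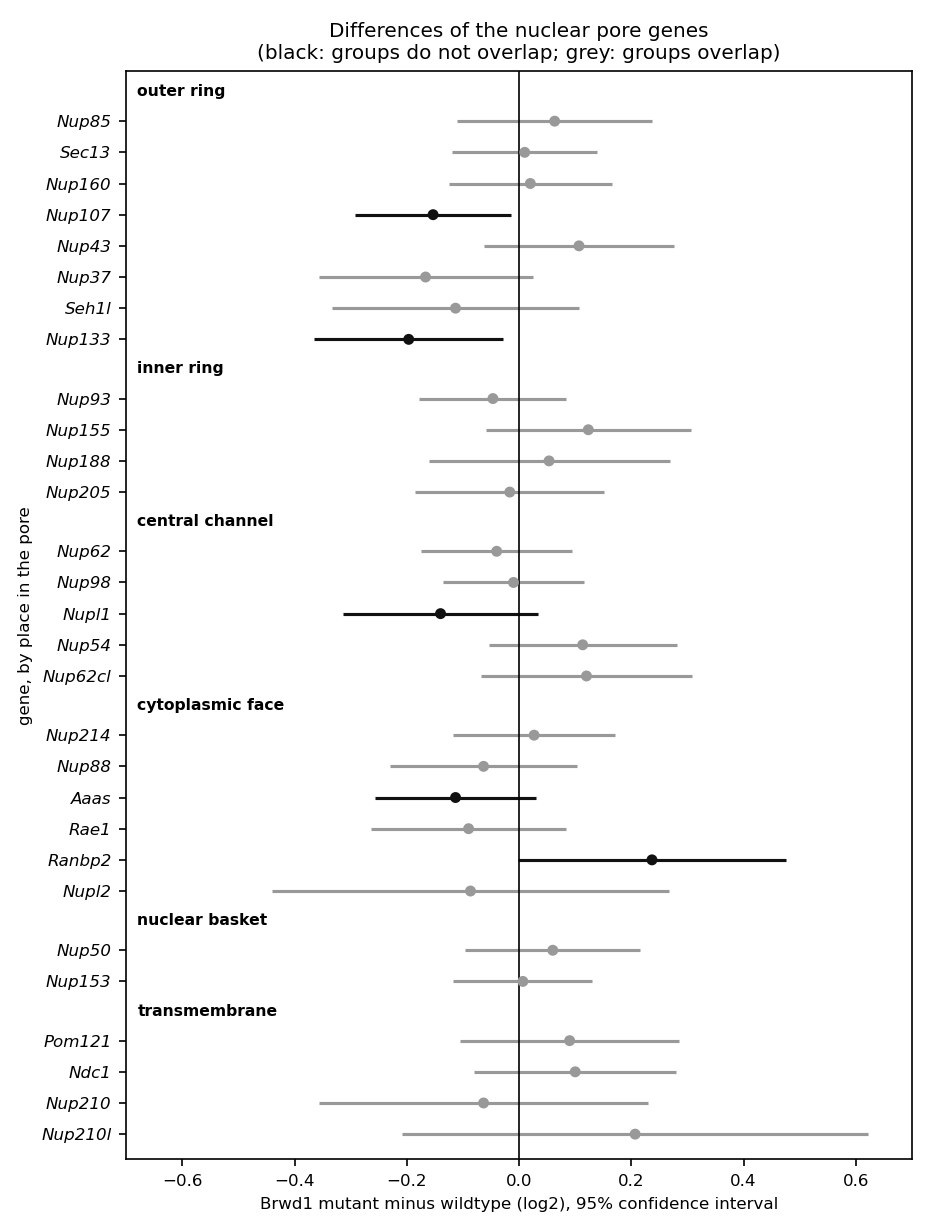
Log2 difference, Brwd1 mutant minus wildtype (horizontal axis), of each nuclear pore gene by place in the pore. Points are limma estimates and lines 95% confidence intervals (n = 3 per group), black where the samples of the 2 groups do not overlap and grey where they do; the intervals of Nup107 and Nup133 alone leave out 0, before adjustment for the number of probe sets.

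The outer ring held the smallest p-values. Nup133, a stem subunit of the Y complex that helps to place it on the membrane, was at 6.79, 6.69 and 6.67 in the mutant samples, against 6.85, 6.87 and 7.02 in the wildtype samples. All 3 mutant samples were below all 3 wildtype samples, with wildtype 3 the highest. The log2 difference was -0.20 (SE 0.071, 95% confidence interval -0.365 to -0.0288; limma, unadjusted p = 0.0278, adjusted p = 0.281). Without wildtype 3 it was -0.14 (limma, adjusted p = 0.404).

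Nup107, the stem subunit that binds Nup133, was at 9.06, 9.03 and 8.94 in the mutant samples, against 9.16, 9.19 and 9.14 in the wildtype samples. Again every mutant sample was below every wildtype sample, with mutant 3 the lowest. The log2 difference was -0.15 (SE 0.058, 95% confidence interval -0.292 to -0.0149; limma, unadjusted p = 0.0345, adjusted p = 0.297), and it was -0.17 without wildtype 3 (limma, adjusted p = 0.346). With 1 array left out in turn, the unadjusted p stayed under 0.05 in 3 of 6 cases for Nup133, not without mutant 2, mutant 3 or wildtype 3. For Nup107 it did so in 1 of 6, only without mutant 1. Both differences kept their sign in all 14 alternatives tried, between -0.253 and -0.143 for Nup133 (limma, adjusted p from 0.23 to 0.507) and between -0.21 and -0.114 for Nup107 (limma, adjusted p from 0.226 to 0.543).

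The other outer ring genes measured here did not share one direction. Nup37, a peripheral subunit, was at 8.02, 8.08 and 7.97 in the mutant samples and 8.31, 8.05 and 8.21 in the wildtype samples, where wildtype 2 fell among the mutant values, and its difference was -0.17 (limma, adjusted p = 0.394). Without wildtype 2 it was -0.237 (limma, unadjusted p = 0.0186, adjusted p = 0.343). Seh1l, a β-propeller subunit, was at -0.11, while Nup43 at 0.11, Nup85 at 0.063, Nup160 at 0.02 and Sec13, which also coats transport vesicles of the endoplasmic reticulum, at 0.01 were on the other side. Of the 8 outer ring genes, 4 differences were positive and 4 negative, with a median of -0.052 and limma adjusted p-values of 0.281 to 0.947. The interval of every outer ring gene stayed within -0.365 and 0.276.

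The inner ring, the scaffold between the outer rings, was the place with the smallest spread of differences among those with at least 4 genes. Its 4 genes ran from -0.047 for Nup93, which ties the channel proteins to the scaffold, to 0.12 for Nup155, which binds the membrane. Nup93 read 9.06, 9.01 and 9.10 in the mutant samples and 9.13, 9.10 and 9.08 in the wildtype samples, which overlap. Nup188 was at 0.053 and Nup205, its structural relative, at -0.017, and the limma adjusted p-values of the inner ring were 0.503 to 0.931.

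In the central channel 0 of 5 genes passed, 2 differences were positive and 3 negative, and their median size without the sign was 0.113. Nup98 and Nup62 had the smallest differences. The 5 include Nup62cl, at 0.12, which is below the background guide. Nup98 read 10.66, 10.69 and 10.63 in the mutant samples and 10.69, 10.65 and 10.67 in the wildtype samples, a difference of -0.01 with a 95% confidence interval of -0.135 to 0.115. Nup62 was at -0.04 (95% confidence interval -0.175 to 0.095). Nupl1, now named Nup58, and Nup54 are the partners of Nup62 in the channel trimer. Nupl1 was at 9.78, 9.56 and 9.72 in the mutant samples and 9.81, 9.80 and 9.87 in the wildtype samples, a difference of -0.14 (limma, adjusted p = 0.424), with no overlap between the groups. Mutant 2 was the lowest, and without it the difference was -0.0767 (limma, adjusted p = 0.697). Nup54 had the opposite sign, at 0.11 (limma, adjusted p = 0.502).

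On the cytoplasmic face, Ranbp2 had the largest difference of any nuclear pore gene. Its protein, the main component of the cytoplasmic filaments, binds Ran and acts as a SUMO ligase. It was at 7.04, 7.09 and 7.11 in the mutant samples, against 6.62, 6.97 and 6.94 in the wildtype samples. The groups did not overlap, but wildtype 1 lay well below the other wildtype samples. The log2 difference was 0.24 (SE 0.10, 95% confidence interval -0.00177 to 0.475; limma, unadjusted p = 0.0513, adjusted p = 0.342). Without wildtype 1 it was 0.125 (limma, adjusted p = 0.503). Over the 14 alternatives it ran between 0.125 and 0.30, with an unadjusted p under 0.05 in 6 (limma, adjusted p from 0.292 to 0.548).

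Aaas, whose human counterpart is mutated in triple A syndrome, was at 8.81, 8.73 and 8.78 in the mutant samples and 8.89, 8.95 and 8.82 in the wildtype samples, a difference of -0.11 without overlap of the groups (limma, adjusted p = 0.435). Rae1, an RNA export factor that docks on Nup98, was at -0.09 by its brighter probe set and at -0.01 by the other. Nup88, the partner of Nup214, was at -0.063, Nup214 at 0.027 and Nupl2, now named Nup42, at -0.087 with a wider interval of -0.44 to 0.267. With 1 array left out in turn, Nupl2 ran between -0.25 and 0.

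Samples of the 2 genotypes were fully separated for 5 of the 29 genes, which were Nup133, Nup107, Nupl1 and Aaas on the lower side and Ranbp2 on the higher side. Over all probe sets the groups did not overlap for 19.7%, 10.1% higher and 9.66% lower in the mutant. The shares among the nuclear pore genes were thus 1 of 29 higher and 4 of 29 lower.

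**Figure D4:**
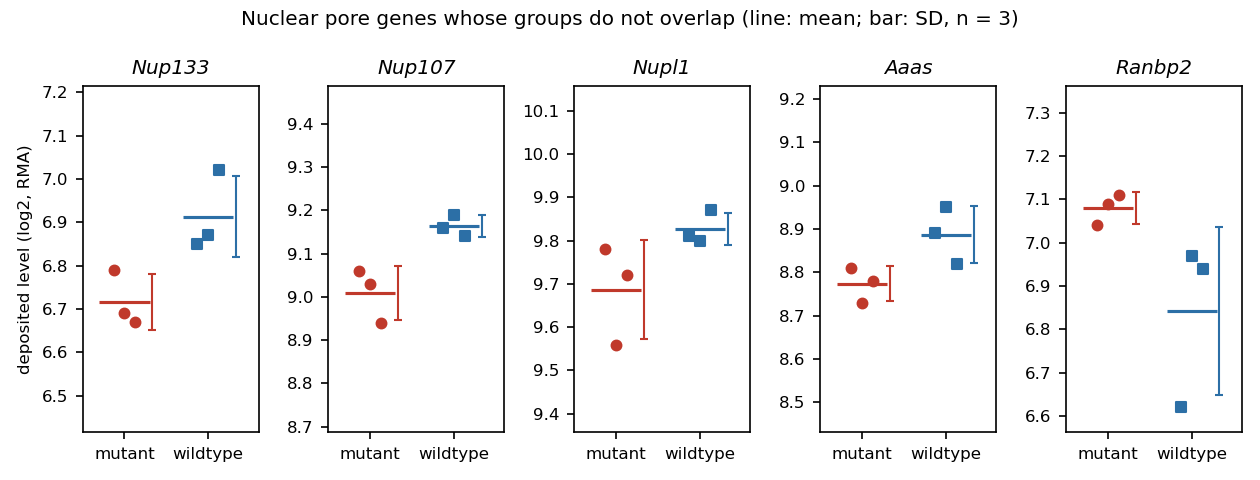
Deposited log2 level (vertical axis, a window of equal height in each panel that does not start at 0) in the 3 mutant and 3 wildtype samples for the 5 nuclear pore genes whose groups do not overlap. Lines are means and bars SD; the means differ by 0.11 to 0.24, and the lowest wildtype sample of Ranbp2 sits apart from the other wildtype samples.

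The nuclear basket was represented by Nup153 and Nup50, which bind each other and import receptors. Nup153 was the steadiest gene of the group, at 9.64, 9.64 and 9.61 in the mutant samples and 9.60, 9.62 and 9.65 in the wildtype samples. Its difference was 0.0067, with a 95% confidence interval of -0.117 to 0.13, and that of Nup50 was 0.06 (limma, adjusted p = 0.71).

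Among the membrane proteins, Pom121, which is needed to build pores into the envelope, was at 10.18, 10.05 and 10.13 in the mutant samples and 9.98, 9.93 and 10.18 in the wildtype samples. The groups overlapped through wildtype 3, and the difference was 0.09 (limma, adjusted p = 0.649). Without wildtype 3 the groups were separate and it was 0.165 (limma, adjusted p = 0.355). Ndc1, which anchors Aaas at the pore, was at 0.10 (limma, adjusted p = 0.584). Nup210, a pore membrane glycoprotein used in a cell-type-dependent way, was dimmer, at 5.90, 5.48 and 5.93 in the mutant samples and 5.80, 5.89 and 5.81 in the wildtype samples, with mutant 2 the lowest. Its difference was -0.063, and 0.0817 without mutant 2, neither of which passed.

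Nup210l, a relative of Nup210 known from the testis, was read by 9 probe sets that disagreed in level. Their means ran from 2.94 to 5.21, and 7 of the 9 were below the background guide. The brightest was at 5.02, 5.72 and 5.19 in the mutant samples and 5.03, 5.06 and 5.22 in the wildtype samples, with mutant 2 above all others and overlapping groups. Its difference was 0.21 (SE 0.175; limma, adjusted p = 0.62), and without mutant 2 it was 0.00167 (limma, adjusted p = 0.996). Of the 9 probe sets 7 had a positive difference, from -0.053 to 0.39 over all 9, and 1 had an unadjusted p under 0.05. It was the other probe set with a mean above the guide. It read 4.86, 4.82 and 4.93 in the mutant samples and 4.56, 4.79 and 4.68 in the wildtype samples, without overlap. The difference of this probe set was 0.19 (limma, unadjusted p = 0.0381, adjusted p = 0.306). No probe set of this gene passed.

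**Figure D5:**
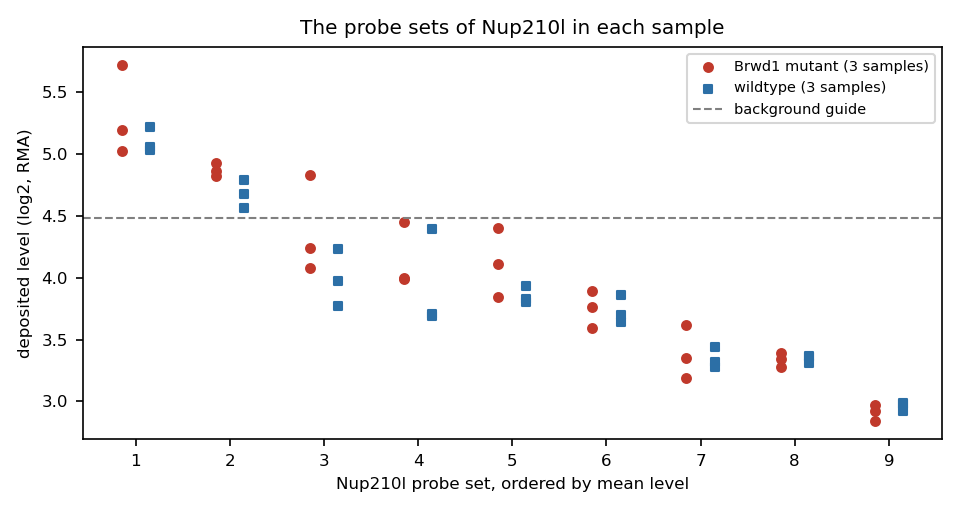
Deposited log2 level (vertical axis) of the 9 probe sets of Nup210l, ordered by mean level (horizontal axis), in the 3 mutant samples (circles) and 3 wildtype samples (squares). Only the 2 brightest probe sets have a mean above the dashed background guide of 4.48.

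The remaining machinery of nuclear transport was read from lists of pore-associated genes, importins, exportins, the Ran cycle, mRNA export and the lamina. Of 60 genes measured, 0 passed (limma, adjusted p of 0.147 to 1). At an unadjusted p under 0.05, 1 was higher and 5 lower, where the shares over all probe sets were 7.3% and 7.4%. The median difference was -0.013, beside 0.013 over all genes. Xpo4, an exportin, was at 8.28, 8.33 and 8.32 in the mutant samples and 8.61, 8.57 and 8.53 in the wildtype samples, a difference of -0.26 (SE 0.055; limma, adjusted p = 0.147). The mutant samples were all below the wildtype samples, and no other gene of these lists had a smaller p-value.

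Among genes of mRNA export, Thoc6, a subunit of the THO complex that packages transcripts, was at -0.22, the helicase Ddx39b at -0.29 and Nxf1, the main export receptor of mRNA, at 0.14 (limma, adjusted p = 0.222, 0.306 and 0.302). The list of 12 had a median of -0.075. Pcid2, a subunit of the export complex TREX-2 that docks at the basket, was at -0.30 and Ddx19b, the helicase that strips export factors at the cytoplasmic face, at -0.19 (limma, adjusted p = 0.223 and 0.259), where the signal of Ddx19b is uncertain because of its close copy Ddx19a. None of the 17 importins and transportins, 5 Ran cycle genes or 10 genes of the lamina and inner nuclear membrane had an unadjusted p under 0.05 (limma, adjusted p of 0.416, 0.591 and 0.481 at the lowest), and their medians were 0.047, -0.013 and -0.025.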

How the data were processed

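Each of the 6 samples was hybridised to 1 Affymetrix mouse gene array after amplification of the RNA, per the labels' protocols. The deposited values are log2 values, made with Affymetrix Expression Console 1.1 and RMA per the submitters' processing notes, which forces the arrays to nearly one distribution. Their genome build was not given in the sources used here. Of 35556 probe sets, 23410 had a gene symbol and 21789 exactly 1. All 29 gene identifiers were found in RefSeq's GRCm38.p6 gene table under the same symbol.

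Mutant minus wildtype was fitted with limma 3.58.1 in R 4.3.3 (lmFit, eBayes, two-sided) on the 23410 probe sets, with Benjamini-Hochberg adjustment, a threshold of 0.05 and no covariate or filter. The number of arrays, 3 per group, limits the precision. Nuclear pore genes at an unadjusted p under 0.05 were described in full, as were genes whose groups did not overlap and some others chosen after their values were seen. Of the transport lists, genes at an unadjusted p under 0.05 were named. The nuclear pore genes and all lists were chosen with earlier results of these data known.

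The replicate numbers were not treated as pairs: the deviations of same-numbered samples from their group means correlated at -0.00146, -0.0314 and 0.0365 over probe sets. The alternatives were a replicate block, median centring, cyclic loess, another quantile normalization, a filter at the background guide, all probe sets, eBayes with trend and robust settings, averaging a gene's probe sets and leaving out each array.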

Additional observations from a re-analysis of the deposited data

How the results depend on the processing

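In all 14 alternatives, 0 of the nuclear pore genes and 0 of the 60 transport genes passed the adjusted threshold, and Brwd1 passed in each. Of 405 differences of nuclear pore genes recomputed, 387 kept their sign and side of the threshold, 15 changed sign, the others were exactly 0, and 0 passed. At an unadjusted p under 0.05, against 0 higher and 2 lower genes, there were 1 higher and 0 lower with the replicate block, 0 and 4 with median centring, 1 and 1 with cyclic loess, 2 and 1 with quantile normalization again, 0 and 1 with trend and robust settings, and 1 and 2 with the mean of probe sets. Without 1 array there were 0 to 1 higher and 0 to 2 lower. Wherever 1 gene was higher it was Ranbp2, and with quantile normalization again the 2 were Ranbp2 and Nup155. There were 0 lower genes without mutant 2 or wildtype 3, and 1 without mutant 3 (Nupl2) or wildtype 1 (Nup133). The median difference moved to -0.050 with median centring and 0.0403 with cyclic loess. Signs changed with median centring for Nup153 (-0.050), Sec13 (-0.0467), Nup160 (-0.0367), Nup214 (-0.030) and Nup188 (-0.00333), with cyclic loess for Nup98 (0.0208), and with quantile normalization again for Nup98 (0.000278) and Nup205 (0.00889). Without 1 array the ranges that crossed 0 were -0.005 to 0.020 for Nup153, -0.00667 to 0.0567 for Nup160, -0.0617 to 0.030 for Nup205, -0.143 to 0.0817 for Nup210, -0.025 to 0.005 for Nup98 and -0.005 to 0.035 for Sec13. Median centring moves all genes of an array by one amount, and so moves every difference by the same amount. The array medians were 4.71, 4.79 and 4.77 in the mutant and 4.71, 4.70 and 4.69 in the wildtype samples. The cause of the other shifts was not tested.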
